A study of Mus musculus with 24 samples.

Results

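Lipid-associated macrophages are macrophages that load and break down lipid, and the 10 genes described here are those by which such cells are usually recognised. The genes were taken by symbol from a published macrophage programme, a choice made with earlier results of these livers known: Trem2, Gpnmb, Cd9, Spp1, Fabp4, Fabp5, Lpl, Cd63, Atp6v0d2 and Lgals3. They are 10 of the 56205 gene rows of the count table, and all 10 were among the 14109 genes with enough counts to be tested. Poly(A) RNA from whole livers of 24 C57BL/6J mice was sequenced, 12 from mice kept on food deficient in methionine and choline (MCD) and 12 from mice on a control diet, each for 20 weeks. In the methods of the study the deficient food is a high-fat formula with a control formula of its own, while the labels also call the control a chow diet. The labels name no engineered allele and no drug for either group. Each diet group held 6 males and 6 females, but the labels do not say which library came from which sex, and the ages of these mice are not given in the sources used here. The MCD diet produces fat accumulation, inflammation and fibrosis in mouse liver without obesity or insulin resistance, which limits it as a model of the human disease.

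TREM2 is a surface receptor of macrophages that binds lipids, lipoproteins and apolipoprotein E and signals through the adaptor TYROBP (DAP12) and the kinase SYK. Macrophages that engulf dying cells and lipid turn on TREM2 together with genes for fatty acid handling, lysosomal function and secreted glycoproteins, and in injured liver such cells gather around lipid-laden hepatocytes and scars. Resident macrophages of the liver, the Kupffer cells, express little of this programme in health.

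Total counts were 16793207 to 24915175 per control library and 16388650 to 24577848 per MCD library. Levels are given as CPM, read counts relative to library sizes scaled by TMM, whose factors ran from 0.642 to 0.973 in control and from 1.07 to 1.26 in MCD libraries without overlap. A gene was called higher or lower at a false discovery rate (FDR) of at most 0.01 with a log2 fold change beyond 0.5 in edgeR's quasi-likelihood test, adjusted by Benjamini-Hochberg over all genes tested. By that rule 2712 genes (19.2%) were higher and 2688 (19.1%) lower in MCD livers. The design text gives as many animals as libraries in each diet, but no label ties a library to an animal. The p-values set the difference between diets against the spread between these samples, with the samples taken as independent.

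Of the 10 genes, 9 were called higher in MCD livers and 0 were called lower, where 19.2% of all tested genes were called higher and 19.1% lower. Their median log2 fold change was 3.27, against -0.10 over all genes tested. For 8 of the 10, every MCD library lay above every control library, a property of 9.5% of all tested genes, and for 0 did every MCD library lie below, a property of 4.88%. All 10 fold changes were above 0, so that 0 genes were lower at any p, and DESeq2 and limma-voom also called 9 higher and 0 lower. Fabp5 was the gene not called, and Fabp4 was called with overlapping groups. In bulk liver RNA, more cells that express a gene and more of its RNA per cell cannot be told apart, and this holds for every result here. Together the 10 genes held a median of 0.0186% of all counts in control libraries (0.00668% to 0.0362%) and 0.205% in MCD libraries (0.172% to 0.364%).

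**Figure D1:**
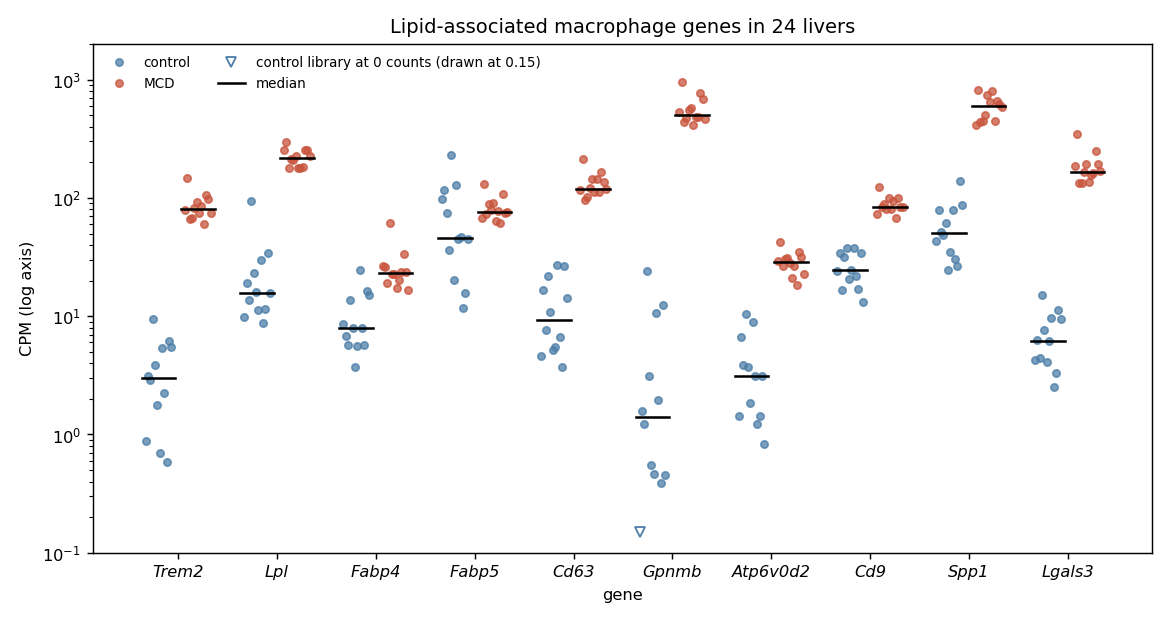
Levels of the 10 genes in each of 24 livers, in TMM-scaled CPM on a log axis, with control livers in blue, MCD livers in red, black lines at the medians and a triangle for the control liver with 0 counts of Gpnmb. Points of the 2 diets are separated for 8 genes, and overlap for Fabp4, where 4 MCD livers lie above every control liver, and for Fabp5, where the control livers span 11.7 to 230 CPM.

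The starting points of 6 of the 10 genes were found in the RefSeq promoter table (GRCm38.p6), which holds Trem2, Gpnmb, Cd9, Cd63 and Lgals3 and 2 start sites of Spp1. Fabp4, Fabp5, Lpl and Atp6v0d2 had no entry. The windows, from 250 bases before to 50 bases after the start, were searched on both strands for 5 motifs of factors known in macrophages: CACGTG and CATGTG (MITF and TFE factors), TGANTCA (AP-1), GAGGAAGT (PU.1) and the direct-repeat element of PPAR with RXR. The 4 windows with a match are shown up to 30 bases past the start, 5′ to 3′ on the strand of the gene, with the matched bases in capitals.

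Trem2 (chr17:48346151-48346430, plus strand): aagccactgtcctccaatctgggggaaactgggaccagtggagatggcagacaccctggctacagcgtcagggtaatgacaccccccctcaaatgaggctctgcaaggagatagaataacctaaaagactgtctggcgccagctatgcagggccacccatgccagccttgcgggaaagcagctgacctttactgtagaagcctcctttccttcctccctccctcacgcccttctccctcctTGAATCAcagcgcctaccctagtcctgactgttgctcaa
Gpnmb (chr6:49036268-49036547, plus strand): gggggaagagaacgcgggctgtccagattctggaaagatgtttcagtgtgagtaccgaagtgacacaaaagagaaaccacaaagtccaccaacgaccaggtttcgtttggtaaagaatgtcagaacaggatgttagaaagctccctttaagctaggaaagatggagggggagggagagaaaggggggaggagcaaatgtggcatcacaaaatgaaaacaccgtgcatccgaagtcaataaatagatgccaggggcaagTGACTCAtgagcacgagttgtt
Cd9 (chr6:125494731-125495010, minus strand): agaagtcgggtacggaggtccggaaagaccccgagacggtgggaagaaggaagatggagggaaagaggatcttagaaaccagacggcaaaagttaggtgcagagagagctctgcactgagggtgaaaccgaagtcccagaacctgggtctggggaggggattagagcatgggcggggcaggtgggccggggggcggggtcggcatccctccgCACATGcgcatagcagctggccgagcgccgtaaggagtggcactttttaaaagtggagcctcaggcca
Spp1 (chr5:104434861-104435140, plus strand): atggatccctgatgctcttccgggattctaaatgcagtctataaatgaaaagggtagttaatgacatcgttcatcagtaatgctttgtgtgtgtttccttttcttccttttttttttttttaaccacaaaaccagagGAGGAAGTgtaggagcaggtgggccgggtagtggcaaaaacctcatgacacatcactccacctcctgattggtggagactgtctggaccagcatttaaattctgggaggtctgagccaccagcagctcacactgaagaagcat

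Trem2 and Gpnmb each held TGANTCA, at bases -9 to -3 and 8 to 14 from the start. This motif was found in 7.81% of 32851 promoter windows. The match in Cd9 was CATGTG read on the opposite strand, at -38 to -33, a motif found in 14.2% of windows, and the match in Spp1 was GAGGAAGT at -113 to -106, found in 3.2%. CACGTG (7.15% of windows) and the PPAR element (0.0396%) matched 0 of the 6 genes. A match of letters is a description of the window and says nothing of binding, which was not measured in these livers.

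Trem2 (ENSMUSG00000023992, chr17:48346401-48352276 in GRCm38), the lipid receptor, had a lowest, median and highest level of 0.586, 3.03 and 9.50 CPM in control livers and of 60.3, 80.4 and 146 CPM in MCD livers. These levels rest on 9 to 168 counts per control library and on 1289 to 4017 per MCD library. The lowest MCD liver lay well above the highest control liver, replicate 4. The mean was 3.55 ± 2.68 CPM (SD, n = 12) in control and 85.8 ± 23.2 CPM (SD, n = 12) in MCD livers, a 24.2-fold ratio of means. The log2 fold change was 4.59 (SE 0.34, 95% interval 3.90 to 5.28, FDR 1.52e-11 by edgeR's quasi-likelihood test), the 31st highest of all tested genes.

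Among 12 genes that bind to TREM2, shed it or signal behind it, 9 were called higher and 0 lower, with a median log2 fold change of 1.31. The adaptor gene Tyrobp rose from a mean of 11.8 to 65.1 CPM (log2 fold change 2.47, FDR 1.07e-11), the kinase gene Syk by 1.47 on the log2 scale (FDR 2.63e-08) and the phosphatase gene Inpp5d by 1.36 (FDR 3.8e-08). The 3 that were not called were the shedding proteases Adam10 (log2 fold change 0.23, FDR 0.0341) and Adam17 (0.27, FDR 0.0108) and the ligand Apoe (-0.42, FDR 0.0111), which hepatocytes also make. Of the other receptors of the TREM family, Treml2 was called higher at a mean of 0.235 CPM in control and 0.734 CPM in MCD livers, Treml4 was not called (log2 fold change 0.25, FDR 0.167), and Trem1, Trem3 and Treml1 fell below the filter.

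Lpl (ENSMUSG00000015568, chr8:68880555-68906932) encodes lipoprotein lipase, the secreted enzyme that frees fatty acids from circulating triglyceride. Its lowest, median and highest levels were 8.73, 15.8 and 94.4 CPM in control livers and 179, 219 and 294 CPM in MCD livers. Control replicate 4 stood apart, since the next highest control liver was at 34.4 CPM, and the groups did not overlap with it included. The log2 fold change was 3.20 (SE 0.32, 95% interval 2.55 to 3.85, FDR 2.75e-09) and 3.65 without that library. Of 9 genes for proteins that mature, anchor or regulate this lipase, 0 were called higher and 5 were called lower, with a median log2 fold change of -0.59. The lower genes included the receptor Vldlr (log2 fold change -1.78, FDR 0.000542), the inhibitor Angptl8 (-1.05, FDR 7.33e-07), the inhibitory apolipoprotein Apoc3 (-0.68, FDR 0.000178) and the maturation factor Lmf1 (-0.59, FDR 0.000683). Gpihbp1, which anchors the enzyme on capillary endothelium, was not called (-0.28, FDR 0.0968).

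Fabp4 and Fabp5 encode fatty acid binding proteins that carry lipids inside cells, and their genes lie near each other on chromosome 3 (Fabp5 at chr3:10012585-10016610, Fabp4 at chr3:10204342-10208616). Fabp4 (ENSMUSG00000062515), abundant in adipocytes, capillary endothelium and macrophages, had a lowest, median and highest level of 3.75, 7.94 and 24.5 CPM in control and of 16.8, 23.1 and 60.8 CPM in MCD livers. Only control replicate 8 reached into the MCD range, so that 11 control livers lay below every MCD liver, but at 24.5 CPM it lay above the MCD median and only 4 MCD livers lay above every control liver. The log2 fold change was 1.36 (SE 0.26, 95% interval 0.83 to 1.90, FDR 6.37e-05).

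The highest Fabp4 level belonged to MCD replicate 4, in which adipocyte genes were present at levels seen in no other liver. It held 239 counts of Adipoq and 266 of Plin1, which define adipocytes, against at most 3 counts of either in any other library, and 2293 counts of Cfd against at most 140. Over the 7 adipocyte markers the summed level was 18.4 to 88.2 CPM in control livers and 20.4 to 155 CPM in MCD livers. Without Plin4, which livers of both diets expressed, the sum was 0 to 10.9 CPM in control livers, 124 CPM in MCD replicate 4 and at most 0.747 CPM in the other MCD livers. Of the 7 markers 5, Adipoq and Plin1 among them, had a median of at most 3 counts over all libraries. Without MCD replicate 4, Fabp4 ran from 16.8 to 33.7 CPM in MCD livers and its log2 fold change was 1.22 (FDR 0.000103). In MCD replicate 4 Lpl, which adipocytes also express, was at 214 CPM, close to the MCD median, and Trem2 was at 67.8 CPM. Endothelial markers, another place of Fabp4 expression, were called lower for 6 of 8 genes, with Pecam1 at a log2 fold change of -0.62 and Cdh5 at -0.96, and 0 were higher.

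Fabp5 (ENSMUSG00000027533) had a lowest, median and highest level of 11.7, 45.7 and 230 CPM in control and of 61.8, 76.3 and 132 CPM in MCD livers. Control replicate 5, at 230 CPM, lay above every MCD liver, replicates 7, 2, 1 and 3, at 128, 116, 98.3 and 74.8 CPM, lay inside the MCD range, and 7 control livers lay below every MCD liver. The log2 fold change was 0.19 (SE 0.34, 95% interval -0.51 to 0.90, FDR 0.639), and the interval leaves room for a change past the 0.5 limit in either direction. Among the 5 family members tested, Fabp1, the main fatty acid binding protein of hepatocytes, fell (log2 fold change -1.73, FDR 2.82e-09), as did Fabp2 (-0.66, FDR 0.00147), and Fabp7 rose from a low level of 2.81 to 6.33 CPM (1.17, FDR 1.1e-06).

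Lysosomal and melanosomal membrane proteins are encoded by Cd63, Gpnmb and Atp6v0d2. Cd63 (ENSMUSG00000025351, chr10:128896231-128912822), a tetraspanin of late endosomes, lysosomes and secreted vesicles, had a lowest, median and highest level of 3.71, 9.22 and 27.0 CPM in control and of 96.0, 120 and 212 CPM in MCD livers. The groups were separated by a wide gap. This was a log2 fold change of 3.39 (SE 0.30, 95% interval 2.77 to 4.01, FDR 4.39e-10), a 10.5-fold ratio of means.

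Gpnmb (ENSMUSG00000029816, chr6:49036518-49058182) encodes a transmembrane glycoprotein that macrophages and osteoclasts make under lysosomal stress. It had a lowest, median and highest level of 0, 1.402 and 24.1 CPM in control livers, on 0 to 426 counts, and of 416, 506 and 947 CPM in MCD livers. Control replicate 1 had 0 counts, which allows up to 0.205 CPM (3 counts, counting error only), and control replicates 4, 11 and 8 stood above the other controls at 24.1, 12.5 and 10.5 CPM. The mean rose from 4.74 ± 7.37 to 568 ± 159 CPM (SD, n = 12 each), and the log2 fold change of 6.89 (SE 0.70, 95% interval 5.46 to 8.32, FDR 3.76e-09) was the 4th highest of all genes tested. Its size was less certain than its direction, with 4.63 by DESeq2, 8.45 by limma-voom and 7.54 without control replicate 4.

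Atp6v0d2 (ENSMUSG00000028238, chr4:19876838-19922566) encodes an alternative d subunit of the proton pump that acidifies lysosomes, known from osteoclasts and macrophages. It had a lowest, median and highest level of 0.833, 3.14 and 10.5 CPM in control and of 18.5, 28.7 and 42.6 CPM in MCD livers, without overlap. On the log2 scale the change was 2.85 (SE 0.31, 95% interval 2.21 to 3.49, FDR 1.38e-08). Of 19 tested subunit and accessory genes of the pump, 4 were called higher and 0 lower, with a median log2 fold change of 0.20. Beside Atp6v0d2 these were Atp6v0e2 (3.01, FDR 1.42e-11), Atp6v1b2 (0.85, FDR 8.23e-10) and Atp6v0e (0.70, FDR 3.42e-07), while Atp6v0d1, the ubiquitous d subunit, was at -0.061 (FDR 0.517). The osteoclast markers Oscar and Calcr had a median of at most 3 counts over all libraries. Dcstamp, also below the filter, had 0 to 6 counts per control library and 7 to 40 per MCD library. Of 4 osteoclast markers tested, Ctsk, which is also on the wider macrophage list, was called higher (log2 fold change 3.78, FDR 2.2e-13). Acp5 (-0.019), Nfatc1 (-0.091) and Ocstamp (-0.12) were not called, and 0 were lower.

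Cd9 (ENSMUSG00000030342, chr6:125460266-125494760) encodes a tetraspanin of the cell surface, found on macrophages and also on bile duct and other epithelia. It had a lowest, median and highest level of 13.2, 24.4 and 37.7 CPM in control and of 67.8, 83.9 and 125 CPM in MCD livers, without overlap. The log2 fold change was 1.76 (SE 0.15, 95% interval 1.44 to 2.07, FDR 2.73e-10), the smallest among the 8 separated genes and the most precise of the 10. Of 24 tested tetraspanin genes, 12 were called higher and 2 lower, with a median log2 fold change of 0.58. Tspan8, an epithelial member, rose most (4.22, FDR 9.74e-12), followed by Cd63 and by Tspan3 (2.11, FDR 3.41e-11), whereas Tspan12 fell (-0.83, FDR 7.04e-07) and Cd81 was not called (-0.34, FDR 0.00023).

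Spp1 (ENSMUSG00000029304, chr5:104435111-104441053) encodes osteopontin, a secreted matrix glycoprotein made by bile duct cells as well as by macrophages. It had a lowest, median and highest level of 24.8, 50.1 and 138 CPM in control and of 412, 600 and 822 CPM in MCD livers, without overlap. Its log2 fold change was 3.34 (SE 0.25, 95% interval 2.82 to 3.85, FDR 2.04e-11). Bile duct markers moved in the same direction: 6 of 7 were called higher and 0 lower, with Epcam at a log2 fold change of 3.67 and Krt19 at 2.99, and their summed level was 23.1 to 43.9 CPM in control and 72.6 to 138 CPM in MCD livers. MCD replicate 8 ranked second for Spp1, at 808 CPM, and first for the summed bile duct markers, and MCD replicate 2 ranked first for Spp1 and second for those markers. The same livers were high for other cells: replicate 8 ranked first for summed stellate cell and fibroblast markers, and replicate 2 for summed macrophage markers. The part of these cell types in the levels of Spp1 and Cd9 was not tested.

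Of 9 receptor genes for osteopontin, 4 were called higher and 1 lower, with a median log2 fold change of 0.48. The higher genes were the integrin genes Itga8 (2.25, FDR 1.4e-09), Itga4 (0.85, FDR 5.47e-06) and Itgb5 (0.64, FDR 9e-06) and the hyaluronan receptor Cd44 (1.97, FDR 1.12e-11), and Itgb3 was lower (-0.72, FDR 0.00478).

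Lgals3 (ENSMUSG00000050335, chr14:47373860-47386167) encodes galectin-3, a sugar-binding protein found in the cytoplasm and outside cells and abundant in activated macrophages. It had a lowest, median and highest level of 2.54, 6.19 and 15.2 CPM in control and of 133, 167 and 345 CPM in MCD livers, without overlap. Its log2 fold change was 4.71 (SE 0.26, 95% interval 4.17 to 5.25, FDR 2.49e-13), the 25th highest of all genes tested and a 26.3-fold ratio of means. It was the only one of 5 tested galectin genes to be called higher: Lgals9 was called lower (-0.87, FDR 5.04e-09), and Lgals1 was not called (0.43, FDR 0.153).

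**Figure D2:**
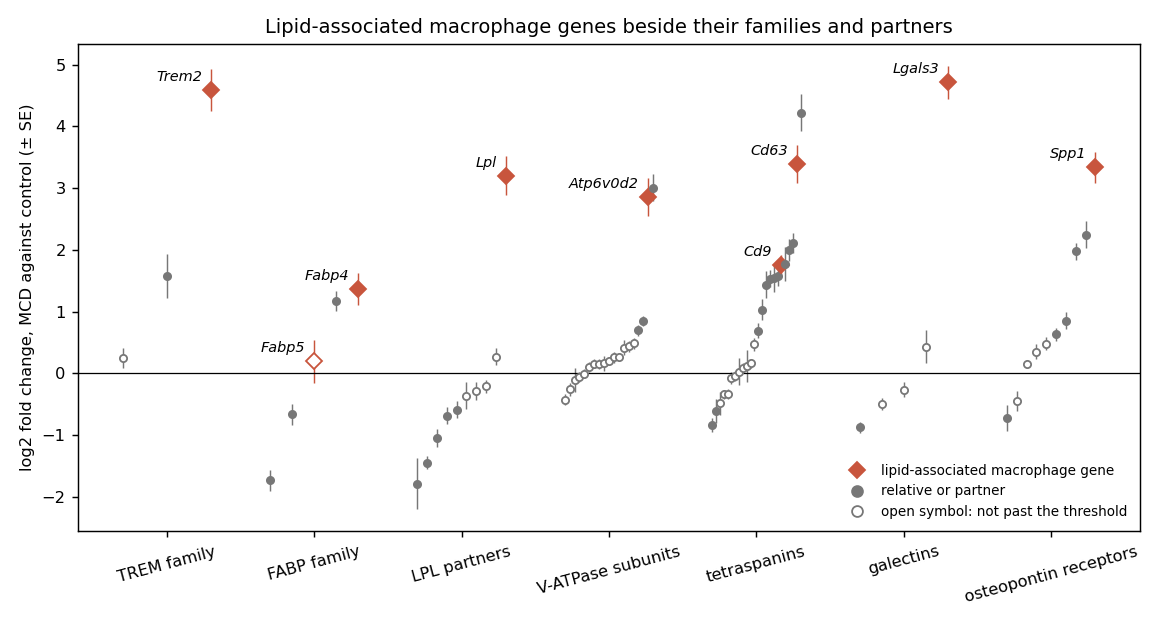
Log2 fold change, MCD against control, with SE bars, for each tested gene of 7 families or partner groups, where red diamonds are the lipid-associated macrophage genes and open symbols did not pass the threshold. Lgals3, Trem2, Fabp4, Lpl and Spp1 are the highest points of their groups, while Atp6v0d2 lies next to Atp6v0e2 at 3.01 and Cd63 below Tspan8 at 4.22.

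Near-identical copies and overlapping genes took few reads in these libraries. Cd63-ps, a pseudogene 98.5% identical to Cd63 over 812 aligned bases, had at most 2 counts in any library, the Fabp5 copies Gm14328 and Gm6166 had 0, Gm26728, which overlaps Cd9, had at most 2, and Gm42793, which overlaps Spp1, had at most 7. Whether strand was used in counting is not given in the sources used here.

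Levels of different genes were compared per kilobase of the longest coding transcript. In control livers Fabp5 had the highest mean, 73.2 ± 63.8 CPM per kb (SD), followed by Spp1 at 39.0 ± 21.8 and Cd9 at 21.3 ± 7.02. Below these lay Fabp4, Cd63, Lpl, Lgals3, Trem2, Atp6v0d2 and Gpnmb, the last at 1.28 ± 1.99 CPM per kb. The step from Cd9 to Fabp4 was the only step between neighbours in this order that exceeded the larger of the 2 SDs. In MCD livers the order was Spp1, Gpnmb, Lgals3, Cd63, Fabp5, Trem2, Cd9, Lpl, Fabp4 and Atp6v0d2, from 394 ± 97.9 to 11.3 ± 2.54 CPM per kb. Gpnmb, at 153 ± 42.9, had moved from last to second, and it did not differ from Lgals3 (130 ± 42.1) by more than the SD, nor Lgals3 from Cd63 (119 ± 28.8), nor Fabp5 (83.6 ± 20.4) from Trem2 (78.9 ± 21.3) or Trem2 from Cd9 (71.9 ± 12.2).

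Whether the genes moved more than macrophage genes in general was asked by subtracting, in each library, the mean log2 CPM of 10 pan-macrophage markers. Those markers were called higher for 9 of 10 genes, with Cd68 at a log2 fold change of 2.75 and Adgre1 (F4/80) and Csf1r at 0.65 and 0.67. They spread widely, from Mertk, not called at -0.42, to Itgam at 3.33 and Lyz2 at 3.78. The value of Lyz2 was larger than those of Cd63 (3.39), Spp1 (3.34), Lpl (3.20) and Atp6v0d2 (2.85). The mean log2 CPM of the 10 markers was 3.41 ± 0.41 in control and 5.29 ± 0.21 in MCD livers. Relative to them, Gpnmb was still 6.49 higher on the log2 scale in MCD livers, Trem2 3.06, Lgals3 2.94, Cd63 1.79, Lpl 1.67 and Spp1 1.60 (two-sided permutation tests, p = 1e-05 for each, the smallest value 100000 resamples can give). For Gpnmb, Trem2, Lgals3 and Cd63 this relative level did not overlap between the diets. Atp6v0d2 was 1.33 higher (permutation p = 6e-05). The relative level lay above every control liver in 11 MCD livers for Spp1, in 4 for Lpl and in 0 for Atp6v0d2.

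For Cd9 and Fabp4 no difference from the markers passed. The relative log2 level of Cd9 was 1.23 ± 0.41 in control and 1.16 ± 0.17 in MCD livers (difference -0.068, permutation p = 0.604), and that of Fabp4 differed by -0.41 (permutation p = 0.137). Without MCD replicate 4, the liver with adipocyte transcripts, a comparison added after the data were seen, the difference of Fabp4 was -0.55 (permutation p = 0.034). Fabp5 was lower relative to the markers, with a difference of -1.22 (permutation p = 0.00272). These 3 depended on the reference: against Adgre1 alone Cd9 was 1.103 higher (permutation p = 1e-05, again the smallest possible), Fabp4 0.757 higher (permutation p = 0.013) and Fabp5 at -0.053 (permutation p = 0.885). The 10 comparisons made with each reference are given with unadjusted p-values.

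**Figure D3:**
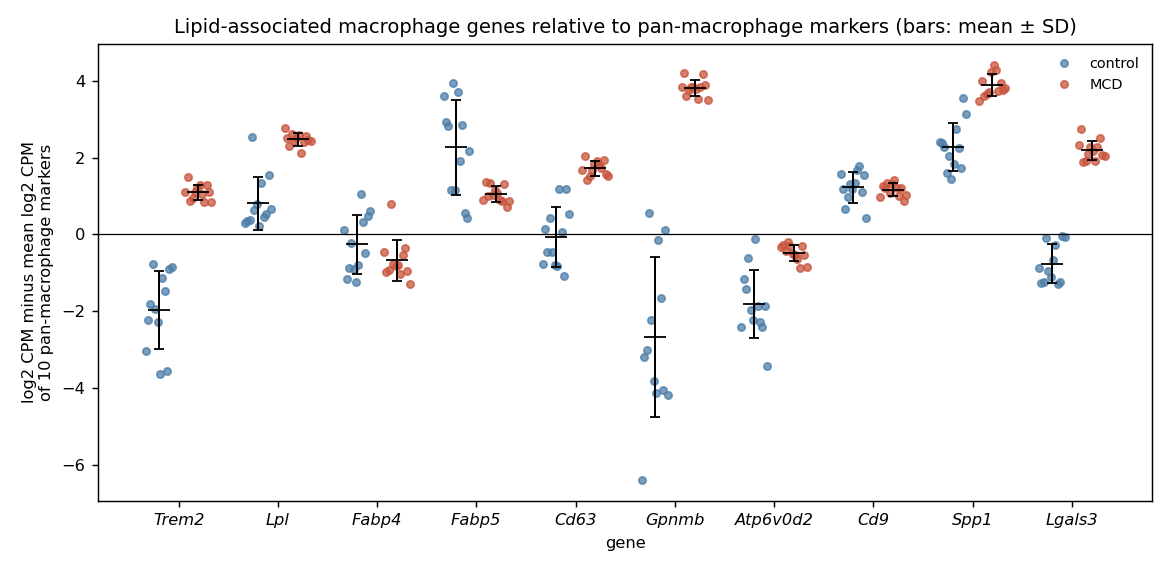
Log2 CPM of each gene minus the mean log2 CPM of 10 pan-macrophage markers in the same library, for 12 control (blue) and 12 MCD (red) livers, with bars at the mean ± SD. Gpnmb, Trem2, Lgals3 and Cd63 rise without overlap, the mean of Cd9 stays at 1.23 and 1.16, and the mean of Fabp5 is higher in control livers, with overlap.

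Of 8 markers of resident Kupffer cells, 0 were called higher and 5 lower, with a median log2 fold change of -0.90, and Timd4 fell from 5.25 ± 2.02 to 0.298 ± 0.181 CPM (SD, n = 12 each) and Clec4f fell by 1.11 on the log2 scale. Cd163, the marker of largest change, was at -6.14 (FDR 1.33e-12), while the abundant markers Cd5l (0.0091, FDR 0.967) and C6 (0.059, FDR 0.917) and also Folr2 (-0.51, FDR 0.0255) were not called. Their summed level was 274 to 503 CPM in control and 116 to 446 CPM in MCD livers. All 6 monocyte markers were called higher, with Ccr2 at a log2 fold change of 2.10. Hepatocyte markers were called lower for 3 of 8 genes, with Alb at -0.62, and 0 were higher, and stellate cell and fibroblast markers were called higher for 8 of 8 genes. T and NK cell markers were called higher for 5 of 5 tested genes, neutrophil markers for 2 of 2, proliferation markers for 5 of 5 and B and plasma cell markers for 0 of 4, which had a median log2 fold change of 0.45. What part these cell types had in the levels of the 10 genes was not tested.

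A wider list of 30 genes described in lipid-laden macrophages, which shares Cd68, Acp5, Ctsk and Lgals1 with other lists here, held 21 that were called higher and 1 that was lower, with a median log2 fold change of 1.18. The elastase gene Mmp12 rose most, from 4.801 to 249.8 CPM (log2 fold change 5.69, FDR 9.38e-10), followed by Syngr1 (4.62, FDR 6.72e-14) and Emp1 (3.97, FDR 1.12e-11), and the cholesterol exporter Abca1 was lower (-0.64, FDR 4.6e-05). Of 12 transcription factors known to act in macrophage lineage, lysosome biogenesis or lipid sensing, 4 were called higher and 2 lower, with a median log2 fold change of 0.045. Atf3 (3.65, FDR 1.93e-12), Spi1, which encodes PU.1 (1.78, FDR 5.23e-10), Mitf (0.92, FDR 8.01e-07) and Tfec (0.63, FDR 0.00706) were higher, Bhlhe40 (-0.85, FDR 2.03e-07) and Rxra (-0.65, FDR 1.73e-06) were lower, and Pparg was not called (-0.20, FDR 0.224).

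The libraries that were high for these genes were largely shared between genes. MCD replicate 2 was the highest MCD liver for 9 of the 10, and Fabp4 was the exception, while replicate 10 was among the top 2 for 9, with Spp1 as the exception. MCD replicate 2 also had the highest summed level of pan-macrophage markers, 2495 CPM where the other MCD livers ran from 1058 to 1699 CPM, and the lowest summed hepatocyte markers. Among control livers, replicate 4 was highest for 5 genes, replicate 8 for 3, and replicate 11 was among the top 2 for 7. Control replicates 4 and 11 also had the highest Col1a1 levels among controls, at 74.7 and 68.0 CPM, and replicate 4 the highest summed pan-macrophage markers, at 362 CPM. Relative spread was lower in MCD than in control livers for 10 of 10 genes, with a median coefficient of variation of 24.6% against 72.2%, and it was lower in MCD livers for 90.04% of all tested genes.

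Within each diet, the relation of the other 9 genes to Trem2 and of all 10 to Col1a1, the collagen gene whose protein the study used as its readout in stellate cells, was measured on log2 CPM over the 12 livers. Of these 38 relations, 24 had a Benjamini-Hochberg adjusted permutation p of at most 0.05. With Trem2, 6 of 9 relations passed in control livers (median r = 0.70) and 8 of 9 in MCD livers (median r = 0.83). Of these, 4 and 3 still passed when the 2 livers farthest from the median Trem2 level were left out. Among the relations that no longer passed on the 10 remaining livers, r stayed close for Fabp4 in control livers (0.69 and 0.65) and fell further for Cd9 in MCD livers (0.83 and 0.48), and whether the smaller number or the livers themselves ended each call was not tested.

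Cd63 followed Trem2 most closely, with r = 0.90 and rho = 0.90 in control livers (adjusted permutation p = 0.00114 and 0.00215) and r = 0.95 and rho = 0.94 in MCD livers (0.00038 and 0.00114). Without the 2 farthest livers r was 0.89 and 0.95. Gpnmb had r = 0.80 in control and 0.91 in MCD livers (adjusted permutation p = 0.00722 and 0.00076), and Lgals3 had r = 0.76 and 0.90 (0.0127 and 0.00129), and both also passed without the 2 farthest livers. Fabp5 had r = -0.034 with Trem2 in control livers and r = 0.83 in MCD livers (adjusted permutation p = 0.916 and 0.0056), with r = 0.52 in MCD livers once the 2 farthest were left out. Fabp4 went the opposite way, with r = 0.69 in control and 0.061 in MCD livers (adjusted permutation p = 0.0238 and 0.884). Without MCD replicate 4, also added after the data were seen, its r in MCD livers was 0.53 and its rho 0.58 (permutation p = 0.0912 and 0.0652). The differences in r between the diets were not tested.

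**Figure D4:**
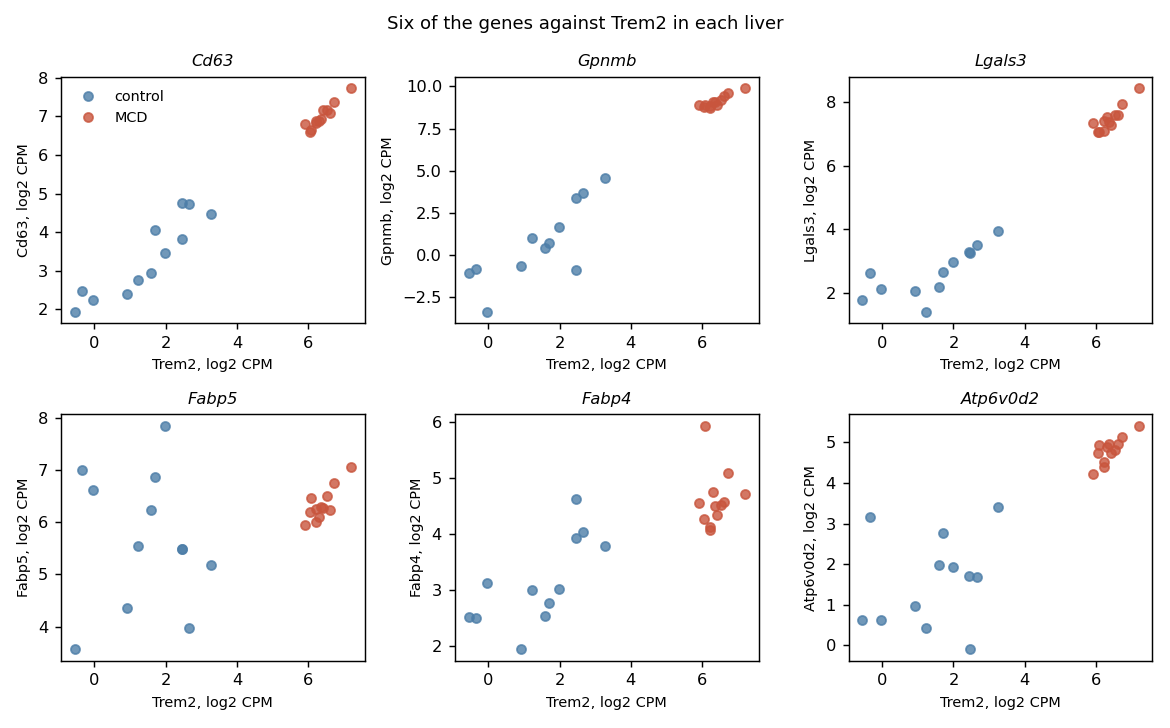
Log2 CPM of 6 genes against log2 CPM of Trem2 in each liver, control in blue and MCD in red. Cd63, Gpnmb and Lgals3 rise with Trem2 inside each diet, Fabp5 rises with it in MCD livers (r = 0.83) and not in control livers (r = -0.034), and the isolated high Fabp4 point is MCD replicate 4.

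Over all 45 pairs of the 10 genes, the median r was 0.56 in control and 0.73 in MCD livers, given as a description since the pairs share libraries. In control livers the pairs that held Fabp5 had a median r of -0.02 and those that held Cd63 a median of 0.81. In MCD livers the pairs of Fabp5 had a median of 0.79, and those of Fabp4 the lowest median, 0.17.

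**Figure D5:**
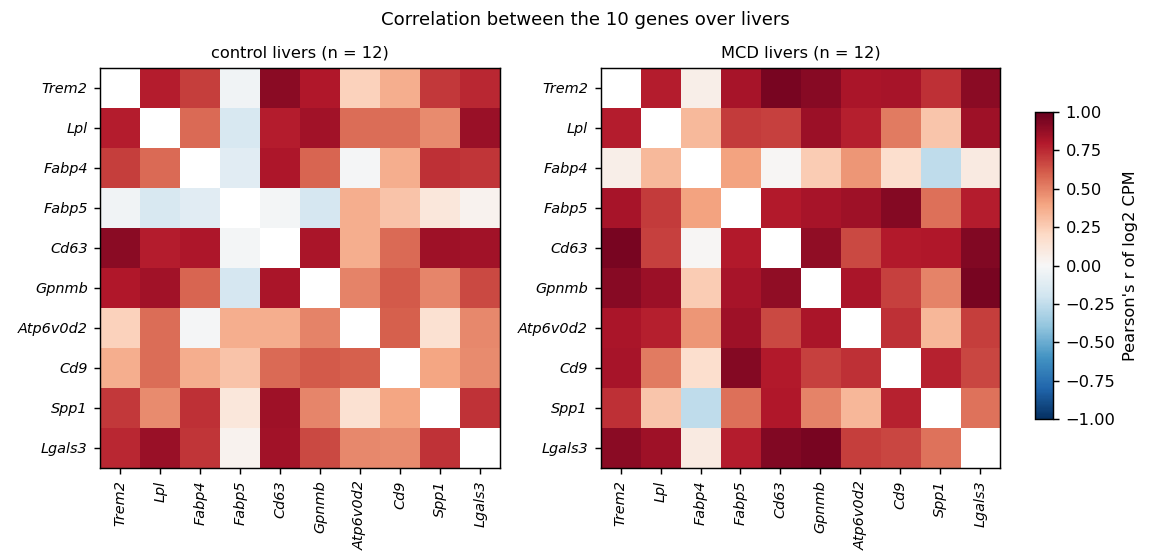
Pearson's r of log2 CPM for each pair of the 10 genes over 12 control livers (left) and 12 MCD livers (right), from blue at -1 to red at 1, with the diagonal blank. The row of Fabp5 runs from -0.17 to 0.36 in control livers and is red in MCD livers, where the row of Fabp4 is the palest.

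With Col1a1, 7 of 10 relations passed in control livers and 3 of 10 in MCD livers, but 3 and 5 passed when the 2 livers farthest from the median of Col1a1 were left out. In control livers Gpnmb (r = 0.72, then 0.50), Fabp4 (0.68, then 0.57), Lpl (0.75, then 0.57) and Lgals3 (0.72, then 0.52) no longer passed. Trem2 had r = 0.90 and rho = 0.90 in control livers (adjusted permutation p = 0.00076 and 0.00215) and r = 0.63 and rho = 0.76 in MCD livers (0.0418 and 0.0164). Cd63 had r = 0.85 in control livers (adjusted permutation p = 0.0056, rho = 0.83) and r = 0.73 in MCD livers (0.0152, rho = 0.83). Both genes also passed in both diets without the 2 livers farthest from the median of Col1a1. Spp1 passed in both diets, with r = 0.72 and 0.71, but in MCD livers r was 0.65 and did not pass without those 2 livers. Fabp5 had r = -0.19 in control and 0.47 in MCD livers and passed in neither. In MCD livers Fabp5, Gpnmb and Lgals3 passed only when the 2 livers were left out, with r = 0.76, 0.82 and 0.81.

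The genes whose levels were most like that of Trem2 were sought among 10112 tested genes with a mean of at least 5 CPM, by Pearson's r over the 24 livers after each diet mean was subtracted. The 10 most alike were Amz1 (r = 0.91), Itgax (0.91), Cd63 (0.90), Timp1 (0.89), Capg (0.88), Col1a1 (0.88), Ccdc80 (0.88), Scube1 (0.88), Col1a2 (0.87) and Col4a2 (0.86). Itgax encodes the integrin CD11c of myeloid cells and Capg an actin-capping protein of macrophages, while Timp1 and the 3 collagen genes are products of fibrogenic cells. Itgax and Capg held r = 0.94 and 0.96 within MCD livers, where Timp1 held 0.80 and Col1a1 and Col1a2 held 0.63 and 0.55. Of the other genes of the programme, Gpnmb ranked 60th, Lpl 80th, Lgals3 108th, Spp1 224th, Fabp4 520th, Cd9 1000th, Atp6v0d2 1629th and Fabp5 3934th. This order follows the control livers more than the MCD livers, since Trem2 varied more among controls (coefficient of variation 75.4% against 27.0%): within MCD livers Cd9, Atp6v0d2 and Fabp5 had r = 0.83, 0.81 and 0.83, above that of Col1a1. These values are a description over libraries that also share their scaling and their cell composition.

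Sex was addressed with a number in place of a label, since both sexes were in each diet group. A score of log2 Xist minus the mean of 4 Y-linked genes ran from -8.07 to 12.5 in control and from -7.24 to 11.1 in MCD livers, with 6 livers above and 6 below 0 in each diet. At an FDR of 0.01, 0 of the 10 genes were associated with the score beside diet, where 3.48% of all tested genes were, and 0 had a diet by score interaction, where 0.411% did (edgeR's quasi-likelihood test). At an unadjusted p under 0.05, 1 gene was associated with the score, Atp6v0d2 (p = 0.0303), and 2 had an interaction, Atp6v0d2 (p = 0.00154, FDR 0.0822) and Fabp5 (p = 0.0482, FDR 0.362).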

How the data were processed

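Whole-liver poly(A) RNA libraries of 12 control and 12 MCD mice were analysed, grouped by the diet in their labels. The authors deposited raw read counts per Ensembl gene, 1 column a library, with no normalization. The submitters' processing notes name bcl2fastq, STAR 2.7.3a and mm10. The study's methods name PISCES for quantification against a human reference. For the mouse libraries the counting program, annotation and strand setting are not given in the sources used here. All 24 columns matched a label and 0 were left unused. Symbols came from GENCODE mouse release 21 for 51745 of 56205 rows, and rows without a symbol held 0.0808% of counts.

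Genes were filtered with filterByExpr by diet, scaled by TMM and tested with edgeR 4.0.16 (glmQLFit and glmQLFTest, R 4.3.3), with Benjamini-Hochberg adjustment over 14109 genes, an FDR of at most 0.01 and a log2 fold change beyond 0.5. The biological coefficient of variation was 26.8%. The log2 CPM used a prior count of 2, and intervals are at 95%. DESeq2 1.42.0, limma 3.58.1, other scalings, filters and thresholds, a replicate block and leaving out each library were alternatives. On simulated counts for 14109 genes, of which 200 were changed, edgeR recovered 80 of 100 genes changed by 1 and 94 of 100 changed by 2 on the log2 scale, and called 1 unchanged gene. The changed genes were few and rose as often as they fell. The simulation therefore cannot speak for scaling or false calls where as many genes differ as between these diets. Permutation tests (two-sided, 100000 resamples) and motif counts used Python 3.11.15, numpy 2.4.6 and scipy 1.17.1, and plots matplotlib 3.10.9. The differences from the macrophage markers are printed with unadjusted p-values in place of values adjusted over the 10 genes alone. The sex-linked score was used as a continuous value without calling the sex of any library.

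The 10 genes, the lists and the tests were chosen with earlier results of these data known. From each gene list, the called genes of largest fold change among those averaging 5 CPM or more were named, up to 3 in each direction, with 12 set genes named whatever their values (Tyrobp, Apoe, Fabp1, Atp6v0d1, Cd81, Lgals1, Mitf, Tfec, Pparg, Cd44, Gpihbp1 and Col1a1). From the cell type markers, set genes were named whatever their values (Adgre1, Csf1r, Cd68, Clec4f, Timd4, Ccr2, Krt19, Epcam, Pecam1, Cdh5, Adipoq, Plin1, Oscar and Alb). Adam10, Adam17, Treml2, Treml4, Itgb5, Itgb3, Apoc3, Lmf1, Fabp7, Atp6v0e2, Cfd, Plin4, Calcr, Dcstamp, Ctsk, Acp5, Nfatc1, Ocstamp, Lyz2, Itgam, Mertk, Cd163, Cd5l, C6 and Folr2 were named after their values were seen. Counts of 3 as a floor cover counting error only. The values of 1 gene of the lipase list are not reported here.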

Additional observations from a re-analysis of the deposited data

How the results depend on the processing

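All 328 alternative fits of the log2 fold changes of the 10 genes kept their direction and their side of the threshold, leaving out each library included, and each tool, scaling and threshold gave 9 higher and 0 lower, except that requiring 10 counts in every library left Trem2 and Gpnmb without a value and 7 higher. The value of Gpnmb ranged from 4.63 (DESeq2) to 8.45 (limma-voom) and from 6.77 to 7.54 over the fits without 1 library; the cause was not tested. Fabp5 ranged from 0.23 to 0.66, and from 0.083 to 0.51 without 1 library, the highest without control replicate 5. Scaling by total counts alone moved the median of all genes by 0.359 on the log2 scale, upper-quartile factors by 0.15 and the other 2 settings by at most 0.059.

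Control and MCD libraries share replicate numbers, but no label says what a number shares. Of 12 same-numbered pairs 8, not all, had a correlation of deviations over 0.1 (-0.28 to 0.349), with a median of 0.233 against -0.0592 for other pairs, a hint of something shared, and the numbers were not taken as pairs. With the replicate number as a block, 9 genes were higher, with Gpnmb at 8.10 and Fabp5 at 0.63.

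The difference from the pan-macrophage markers turned with the reference for Cd9 (1.103 with Adgre1 alone, 0.284 without Cd68 and Lyz2) and for Fabp4 (0.757 with Adgre1 alone), and that of Fabp5 (-0.053 with Adgre1 alone) no longer passed. Without MCD replicate 4, an alternative added after the data were seen, Fabp4 was at -0.548 (permutation p = 0.034). Without the 2 farthest livers, r with Col1a1 in control livers changed sign for Cd9 (-0.012), Fabp5 (0.089) and Atp6v0d2 (-0.021); of the 38 relations, 20 kept sign and side, 12 no longer passed and 3 came to pass. Trem2 had 9 to 168 and Gpnmb 0 to 426 counts per control library, the depth behind their control levels.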

Other observations

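In control livers, where Fabp5 was most variable, the genes most like it over the 12 livers were G6pdx (r = 0.90), which encodes the entry enzyme of the pentose phosphate pathway, and Nkiras2 (0.87). In MCD livers they were Glmp (0.92), which encodes a lysosomal membrane protein, and Cd9 (0.92). For Atp6v0d2 they were Cyp39a1 (0.91), an oxysterol hydroxylase gene, and Tmem87a (0.90) in control livers, and Hdac10 (0.89) and Apbb1ip (0.89) in MCD livers. These likenesses were looked for after the values were seen and are given as descriptions over libraries that share their scaling.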
